A study of Mus musculus with 39 samples.

Results

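The 10 genes described here encode proteins that bind, take up, break down, export or store lipid, with Apoe as the lead gene. They were chosen by symbol, with earlier results of these data known and no threshold on measured values, and all 10 were found once in each table, among 46333 gene rows in females and 54532 in males. Apoe encodes the lipid carrier of the particle. Lpl and Fabp5 act in lipid uptake and transport, Lipa and Npc2 in the lysosome, Abca1 and Abcg1 in efflux, Soat1 and Plin2 in storage, and Ch25h makes an oxysterol. All 10 passed the filter on low counts in each comparison.

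The study asked how chronic intermittent hypoxia (CIH), a model of the oxygen swings of sleep apnea, acts on microglia with and without amyloid. Bulk mRNA of CD11b-positive cells, pulled from the cerebrum with magnetic beads, was read in 39 libraries of wildtype (WT, C57Bl6 in the design text) and 5XFAD mice. The methods describe a cross of C57BL/6J wildtype females with males of the 5XFAD line, which is B6SJL-derived. That line carries mutant human transgenes that drive amyloid deposition. Mice were kept from 4 months of age in CIH (IH in the sample titles) or in normoxia (NX), females to 10 months and males to 8 months. The deposited design text gives 6.5% O2 against 21% in 90-s intervals for 8 hours of the sleep period, and the study's methods give a somewhat lower oxygen level and a longer daily exposure. Female WT NX held 4 libraries and each of the other 7 groups of sex, genotype and air held 5. Libraries are named by sex (F or M), group and replicate number, and p-values measure the spread between these libraries. Sex went with age, length of exposure and table, which cannot be told apart, so the sexes are set side by side without a test.

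Microglia take up cholesterol and fatty acids from myelin, dead cells and lipoproteins, hydrolyse the esters in the lysosome, and either export the sterol to ApoE particles or esterify it into droplets. ABCA1 and ABCG1, the exporters, are classical targets of the liver X receptors (LXR), which sense oxysterols, and so is Apoe. Near amyloid plaques microglia are known for high Apoe and Lpl, part of the profile named disease-associated microglia (DAM).

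Total counts were 13457293 to 25906121 per library. The 8 defining microglial markers summed to 20451 to 33166 CPM (counts scaled to library size, with TMM factors set within a table) in every library and none was at 0, although 1 of the 8 in NX females and 2 in each of the other 3 genotype comparisons were downregulated in 5XFAD. Apoe alone took 0.112% to 0.333% of all counts in WT and 1.34% to 3.39% in 19 of the 20 5XFAD libraries, where it held rank 1 to 3 among all genes. Library 4 of female 5XFAD NX stood apart with 0.0887%. It had 38551 genes with at least 1 count, the most of the 39 libraries, against 21697 to 22148 in the rest of its group. Its TMM factor (1.17) was the highest of the female libraries. Its 14 plaque-response markers summed to 2930 CPM, against 11617 to 22142 in the other 4 libraries of its group and 2970 to 7245 in female WT, and it is kept in all values unless stated. In F WT NX 1 the same markers summed to 7245 CPM, against 3015 to 3720 in the other 3. M 5XFAD NX 4 and 5 lay between the genotypes on the first principal component of the male libraries. M WT NX 4 and 5 stood apart from their group on it (-17.3 and -15.4, against -39.4 to -31.6 in the other 3 and -53.5 to -45.4 in WT CIH), and they held the highest Apoe and Npc2 and the lowest Soat1 levels of WT NX males. Mitochondrial genes took 1.00% to 1.24% of counts in WT and 1.23% to 1.46% in 5XFAD NX females. In NX males they took 1.25% to 1.71% and 1.69% to 2.39%. Under CIH the shares were 0.828% to 1.00% and 1.21% to 1.73% in females, and 0.965% to 1.197% and 1.64% to 2.26% in males. The genotypes overlapped under NX and not under CIH. The part of this share in the genotype values was not tested. In bulk RNA, fewer cells of a type and less RNA per cell cannot be told apart.

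DEGs had an FDR below 0.05 (Benjamini-Hochberg over all genes tested, edgeR's quasi-likelihood F test) and an absolute log2 fold change (log2FC) above 1. Under NX, 5 of the 10 genes were upregulated in 5XFAD females (Apoe, Lpl, Npc2, Soat1 and Ch25h), where 4.4% of all genes tested were. Leaving out 1 library at a time moved this count between 0 and 6, and it was 6 without F 5XFAD NX 4 and at most 3 without any other library. In NX males 7 of 10 were upregulated (the same 5, with Fabp5 and Plin2), against 5.94% of all genes, and 6 without M 5XFAD NX 4 and 5. Under CIH, 7 were upregulated in 5XFAD females, against 8.83% of all genes, and 7 in 5XFAD males, against 11.8%. Abca1 in CIH males was the single DEG in the opposite direction, where 6.88% of all genes were downregulated. The split of all calls depended on scaling. With TMM 1317 genes were upregulated and 615 downregulated in CIH females, 881 and 343 in NX males and 1746 and 1018 in CIH males, and with library size alone 1024 and 995, 622 and 601, and 1147 and 2527. In CIH males the calls of 6 of the 7 upregulated genes held with library size alone, and Lipa fell short of the fold limit. Abca1 also stayed a DEG. That scaling moved the median log2FC of all genes to -0.43, the direction of the Abca1 call, so it could not test that call. The median log2FC of the 10 genes was 1.15 and 1.61 in females and 1.41 and 1.81 in males (NX, then CIH), against -0.02, -0.02, 0.02 and -0.06 over all genes tested. The 5XFAD libraries lay wholly above WT for 1 gene in NX females (3.21% of all genes), 8 in CIH females (18.8%), 8 in NX males (8.57%) and 8 in CIH males (19.4%). The genotype and CIH comparisons share groups, so their values are given side by side.

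**Figure D1:**
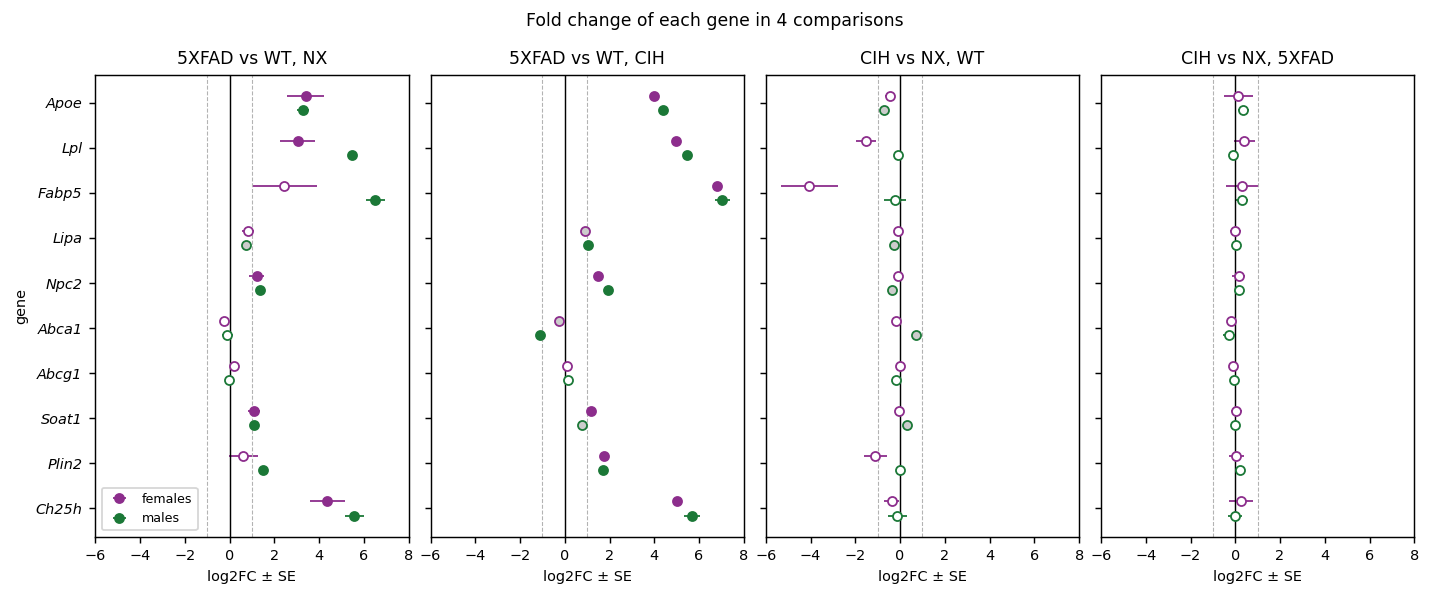
Log2FC of the 10 genes in each comparison of each sex, with its SE as a horizontal bar; filled markers are DEGs, grey markers passed the FDR alone and white markers did not. The genotype comparisons hold the filled markers to the right of 0, the Abca1 marker of CIH males lies to the left at -1.09, and no CIH comparison holds a filled marker.

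Apoe lies on chromosome 7 (GRCm38, 19696109 to 19699188, minus strand, protein coding, ENSMUSG00000002985), next to Apoc1, Apoc4 and Apoc2. Its promoter is shown, with those of Abca1 and Ch25h, to set the lead gene beside an exporter and beside the gene of the 10 nearest to it in pattern, and each is the 250 bases before the RefSeq start (GRCm38.p6), printed on the gene's own minus strand. Capitals mark matches to the motifs searched (CACGTG, the E-box, ACGTG, the hypoxia response core, TGANTCA, the AP-1 site, GAAA repeated after any 2 bases, the interferon element, AGGTCA repeated after any 4 bases, the LXR element named DR4, and TATAAA, the TATA box), on both strands.
Apoe, chr7:19699189-19699438: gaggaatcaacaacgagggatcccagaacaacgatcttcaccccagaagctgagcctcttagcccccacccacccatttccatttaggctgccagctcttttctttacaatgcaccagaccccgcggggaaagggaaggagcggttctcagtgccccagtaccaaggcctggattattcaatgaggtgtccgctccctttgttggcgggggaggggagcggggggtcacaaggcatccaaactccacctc
Abca1, chr4:53159896-53160145: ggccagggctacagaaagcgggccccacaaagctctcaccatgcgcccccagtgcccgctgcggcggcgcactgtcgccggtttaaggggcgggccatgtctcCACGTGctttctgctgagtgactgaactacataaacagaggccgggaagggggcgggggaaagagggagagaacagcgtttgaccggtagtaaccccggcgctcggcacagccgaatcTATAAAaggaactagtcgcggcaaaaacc
Ch25h, chr19:34475149-34475398: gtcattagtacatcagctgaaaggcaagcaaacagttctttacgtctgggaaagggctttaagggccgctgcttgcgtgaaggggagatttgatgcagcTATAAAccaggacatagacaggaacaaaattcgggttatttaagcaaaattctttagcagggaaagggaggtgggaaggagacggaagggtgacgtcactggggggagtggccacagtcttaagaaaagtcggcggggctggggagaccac
The Apoe window held none of these letters. The Abca1 window held CACGTG, 147 to 142 bases before the start, which contains the hypoxia response core on both strands, and TATAAA from 29 to 24 bases before it. The Ch25h window held TATAAA from 151 to 146 bases before the start. Of all 32851 RefSeq windows of 250 bases, 6.02% held CACGTG, 16.6% ACGTG, 12.4% TATAAA, 6.75% TGANTCA, 2.98% the interferon element and 0.0152% the DR4 element. Windows were at hand for 7 of the 10 genes. Lipa held TATAAA on the reverse strand (239 to 234 bases before the start), and Npc2, Soat1 and Plin2 held none. Lpl, Fabp5 and Abcg1 were not matched.

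Apoe was upregulated in 5XFAD microglia in all 4 genotype comparisons, between 9.72-fold (NX males) and 20.9-fold (CIH males). In NX males it stood at 2417, 1448, 1898, 2583 and 3136 CPM in WT and at 25479, 22970, 33646, 15161 and 14314 CPM in 5XFAD. The lowest 5XFAD male thus lay above the highest WT male, and replicates 4 and 5 were the 2 lowest of 5XFAD NX. The log2FC was 3.28 (SE 0.274, adjusted p = 4.27e-06). In CIH males the values were 1253, 1404, 1428, 1347 and 1433 CPM in WT and 28382, 20112, 24749, 26065 and 43795 CPM in 5XFAD, a log2FC of 4.39 (SE 0.182, adjusted p = 3.38e-10). The groups did not overlap, and M 5XFAD CIH 5 held the highest Apoe level of the male libraries.

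In NX females Apoe stood at 2689, 1165, 1955 and 1459 CPM in WT and at 26866, 26622, 13886, 760.5 and 27942 CPM in 5XFAD. F 5XFAD NX 4 lay below every WT library, and the rest of its group lay far above them. The log2FC was 3.40 (SE 0.828, adjusted p = 0.0322), and 3.70 without F 5XFAD NX 4 (adjusted p = 2.53e-05). Leaving out any single one of the other 8 libraries took the adjusted p above 0.05 (at most 0.0917). In CIH females, WT held 1061, 1151, 1176, 1530.3 and 1720.4 CPM and 5XFAD held 25576, 16391, 18292, 19592 and 24833 CPM, a log2FC of 4.00 (SE 0.175, adjusted p = 1.47e-09) with no overlap.

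CIH did not give an Apoe DEG in either genotype. In WT males Apoe was lower under CIH, with no overlap between 1448 to 3136 and 1253 to 1433 CPM, at a log2FC of -0.74 (SE 0.150, adjusted p = 0.0022) that passed the FDR but not the fold limit. Without M WT NX 4 and 5, left out after their values were seen, it was -0.49 (adjusted p = 0.0237). With all 4 male groups in one fit the adjusted p was 0.0627. In WT females the log2FC was -0.45 (SE 0.223, adjusted p = 0.96). In 5XFAD the log2FC was 0.14 (SE 0.643) in females and 0.36 (SE 0.254) in males, both with an adjusted p of at least 0.995, and the groups overlapped. The female sign rests on F 5XFAD NX 4, without which it was -0.17.

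**Figure D2:**
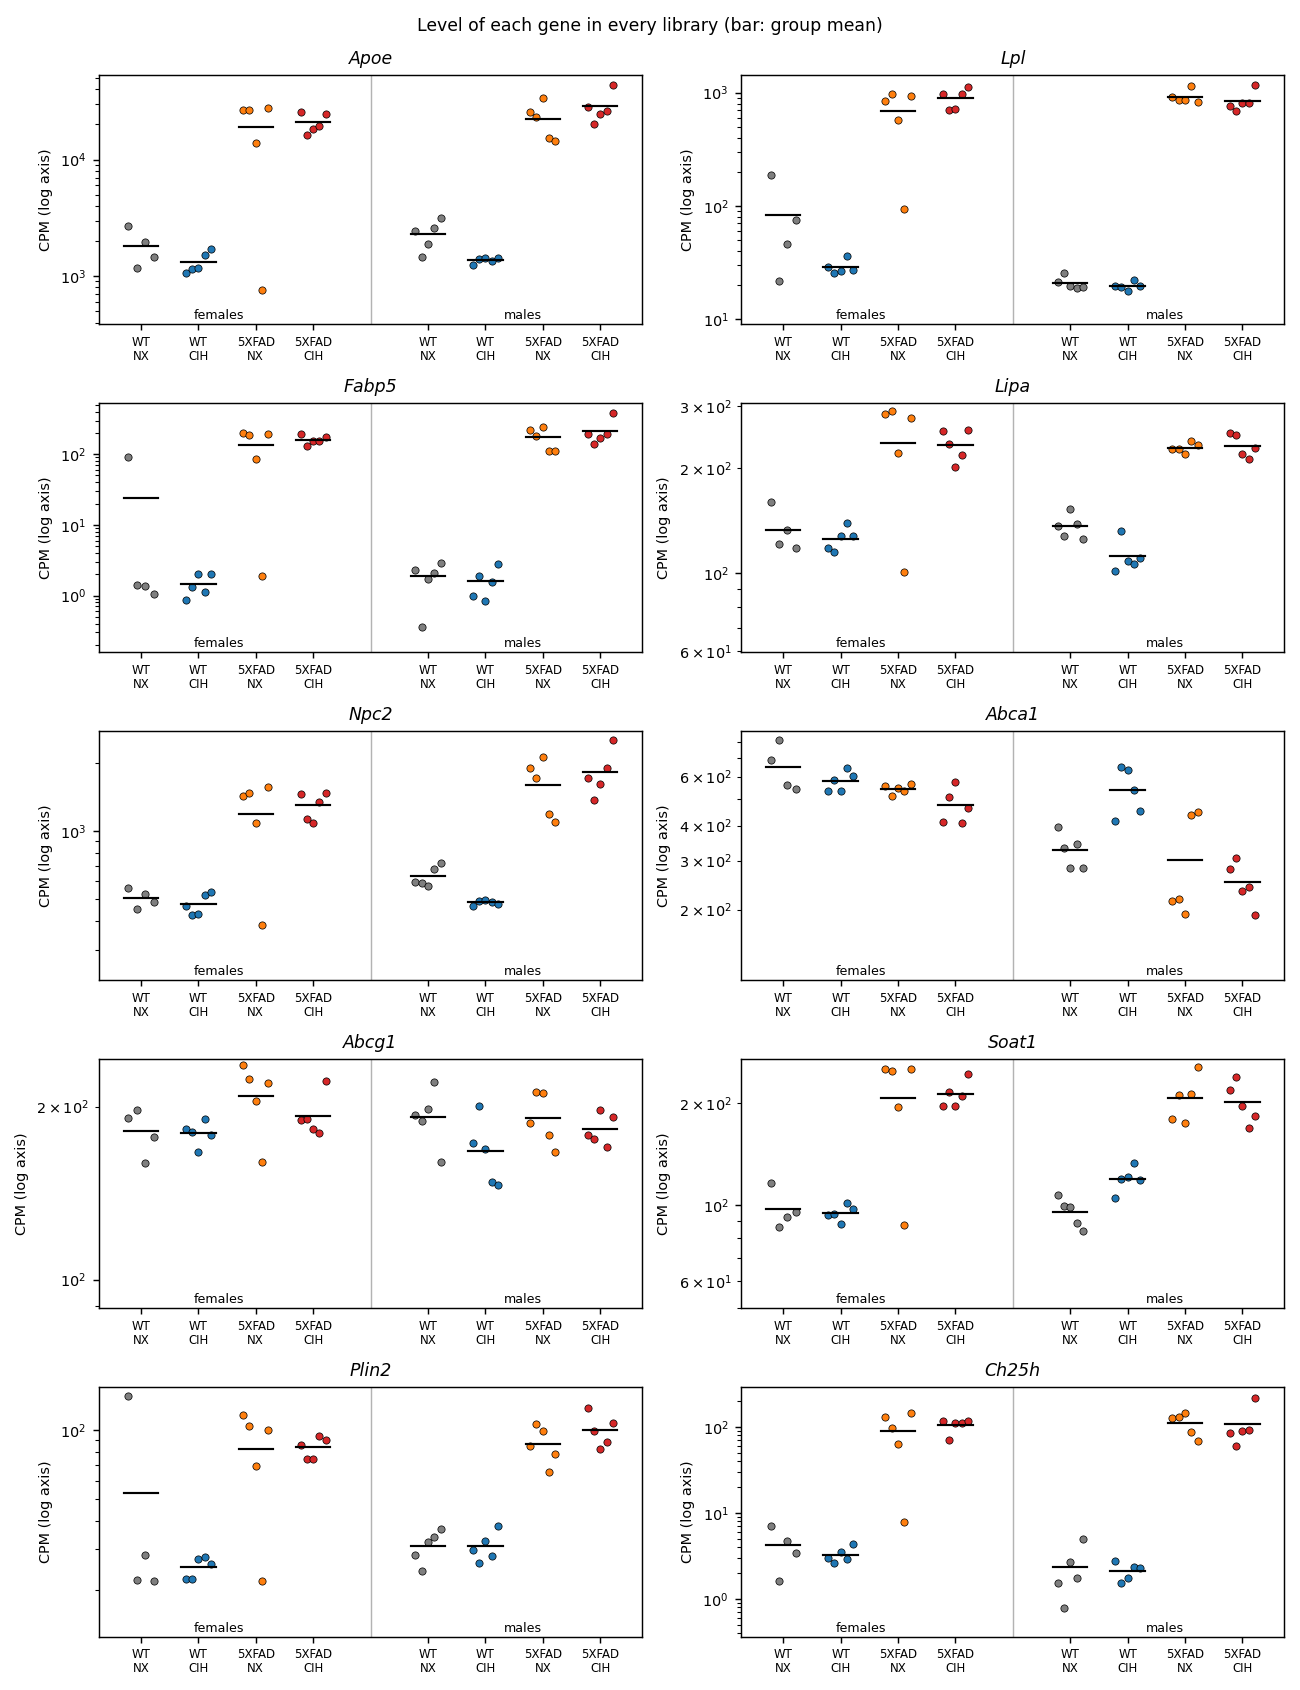
CPM (log axis) of each of the 10 genes in every library, by sex and group; each point is a library and each bar the group mean. Apoe, Lpl, Fabp5 and Ch25h separate the genotypes widely except for F 5XFAD NX 4 and, for Fabp5, F WT NX 1, while Abcg1 stays between 146 and 236 CPM in all groups.

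Astrocytes also express Apoe. The 10 astrocyte markers summed to 146 to 268 CPM in WT and 147 to 1029 CPM in 5XFAD, and 1 of the 10, Gfap, was at 0 in a library, in WT NX males. Under NX 1 of 10 was upregulated in 5XFAD females and 3 of 10 in males, and under CIH 4 of 10 in females and 1 of 10 in males, where 2 were downregulated. Gfap was the marker upregulated in all 4 comparisons. It passed the filter on low counts (above 1 CPM in at least 3 libraries) only through 5XFAD, with WT at 0.257 to 1.51 CPM in females and 0 to 1.72 CPM in males, and 5XFAD at 1.80 to 404.6 and 101.6 to 747.1 CPM. Border macrophages express Apoe as well, and their 8 markers summed to 1222 to 1837 CPM in WT and 446 to 1169 CPM in 5XFAD, with 7 and 6 of the 8 downregulated in females and 6 and 2 in males (NX, then CIH), and none at 0. The part of these cells in the Apoe result was not tested.

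Lpl (chromosome 8, 68880491 to 68907448), the lipase that frees fatty acids from lipoproteins, had a larger log2FC than Apoe in 3 of the 4 genotype comparisons. In NX males it stood at 21.2, 25.6, 19.6, 18.8 and 19.2 CPM in WT and 914.6, 865.0, 867.3, 1138 and 823.0 CPM in 5XFAD. No library came near the other group, at a log2FC of 5.47 (SE 0.153, adjusted p = 1.85e-10). For Lpl, M 5XFAD NX 4 and 5 held ranks 2 and 6 of the 10 male 5XFAD libraries, where they held the last 2 for Apoe. Under CIH the log2FC was 5.44 in males (SE 0.154) and 4.97 in females (SE 0.158), with no overlap. In NX females Lpl ranged from 21.7 to 188.7 CPM in WT and from 93.0 to 970.9 CPM in 5XFAD, where F WT NX 1 was the highest WT library and F 5XFAD NX 4 the lowest 5XFAD library. The log2FC was 3.04 (SE 0.763, adjusted p = 0.0347), and without both of these libraries, an exclusion chosen after their values were seen, 4.12 (adjusted p = 5.1e-05).

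Fabp5 (chromosome 3, 10012548 to 10016607), a cytosolic carrier of fatty acids, was near the filter on low counts in most WT libraries and had the largest log2FC of the 10 in both male comparisons and in CIH females. In males it ranged from 0.358 to 2.93 CPM in WT NX and from 110 to 247 CPM in 5XFAD NX, and from 0.834 to 2.75 CPM in WT CIH and 139 to 379 CPM in 5XFAD CIH. These groups did not overlap (log2FC 6.52, SE 0.421 under NX and 7.04, SE 0.343 under CIH, adjusted p = 4.69e-07 and 1.83e-09). CIH females gave 6.79 (SE 0.183, adjusted p = 2.6e-11). In NX females WT held 92.6, 1.39, 1.38 and 1.05 CPM and 5XFAD held 201.7, 187.6, 85.2, 1.92 and 192.9 CPM. In each group 1 library, F WT NX 1 and F 5XFAD NX 4, lay near the level of the other genotype. The log2FC was 2.45 (SE 1.46, adjusted p = 0.262), and 7.01 (adjusted p = 2.47e-06) without both.

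CIH gave no DEG in uptake genes. In WT females the log2FC was -4.05 for Fabp5 (SE 1.26) and -1.52 for Lpl (SE 0.461), each with an adjusted p of 0.96. Both values rest on F WT NX 1, since without it they were 0.21 and -0.71. In WT males they were -0.22 and -0.08, in 5XFAD females 0.28 and 0.40 (-0.03 and 0.12 without F 5XFAD NX 4), and in 5XFAD males 0.30 and -0.12.

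Npc2 and Lipa act in sequence in the lysosome, LIPA splitting cholesteryl esters and NPC2 handing the freed cholesterol to the membrane for export. Npc2 was 2.34- to 3.76-fold and Lipa 1.68- to 2.08-fold higher in 5XFAD, less than Apoe, Lpl or Fabp5 in the same comparison. Npc2 (chromosome 12, 84754562 to 84773152) in males held 594.0, 591.2, 575.1, 681.5 and 721.8 CPM in WT NX and 1902, 1709, 2121, 1185 and 1093 CPM in 5XFAD NX. As with Apoe, replicates 4 and 5 were the 2 lowest 5XFAD libraries and still above WT. The log2FC was 1.34 (SE 0.180, adjusted p = 0.000216), and 1.91 under CIH (SE 0.134, adjusted p = 5.74e-08). In females it was 1.22 under NX (SE 0.337, adjusted p = 0.0433), where F 5XFAD NX 4 at 386.9 CPM lay below all WT libraries, and 1.46 under CIH (SE 0.104, adjusted p = 1.22e-07).

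Lipa (chromosome 19, 34492318 to 34527474) was a DEG in CIH males alone. It ranged from 101.4 to 132.4 CPM in WT CIH and from 211.7 to 250.8 CPM in 5XFAD CIH, a log2FC of 1.06 (SE 0.0947, adjusted p = 6.12e-07), and 0.68 with library size in place of TMM. It passed the FDR without the fold limit in NX males (0.75, SE 0.0944, adjusted p = 0.000132) and CIH females (0.91, SE 0.0784, adjusted p = 7.42e-07). In NX females it was 0.82 (adjusted p = 0.0657), and 1.00 (adjusted p = 0.000141) without F 5XFAD NX 4. A difference in this genotype effect between NX and CIH males was not called (interaction log2FC 0.30, SE 0.125, adjusted p = 0.154).

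In WT males both lysosomal genes were lower under CIH. Npc2 fell from the values above to 469.9, 492.9, 498.1, 488.1 and 479.3 CPM, with every CIH library below every NX library (log2FC -0.38, SE 0.0789, adjusted p = 0.00253). Lipa overlapped between the groups (log2FC -0.28, SE 0.0894, adjusted p = 0.0265), and its adjusted p passed 0.05 without M WT NX 3 or without M WT CIH 1, 3 or 4, up to 0.0683. Without M WT NX 4 and 5 together, Npc2 had a log2FC of -0.28 (adjusted p = 0.0261) and Lipa of -0.32 (adjusted p = 0.0511). With all 4 groups in one fit the adjusted p was 0.128 for Npc2 and 0.0634 for Lipa.

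Abca1 and Abcg1, the exporters, did not follow Apoe. Abca1 (chromosome 4, 53030787 to 53159895) loads cholesterol onto lipid-poor apolipoproteins. In males it stood at 395.9, 333.4, 283.0, 343.5 and 281.4 CPM in WT NX and at 414.7, 648.7, 632.0, 536.7 and 451.4 CPM in WT CIH. All CIH libraries of WT lay above all NX libraries, at a log2FC of 0.71 (SE 0.129, adjusted p = 0.00112) that passed the FDR but not the fold limit. In this comparison 8.18% of all genes were higher with no overlap, and 13.6% were higher by the FDR alone. Without M WT NX 4 and 5 the value was 0.67 (adjusted p = 0.0127). With all 4 male groups in one fit the adjusted p was 0.0612.

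In 5XFAD males Abca1 stood at 214.0, 217.7, 193.5, 438.6 and 447.5 CPM under NX and at 278.9, 305.7, 234.1, 241.5 and 192.0 CPM under CIH. Replicates 1, 2 and 3 of NX lay below every WT NX library, and replicates 4 and 5 lay above all of them. Against WT, 5XFAD was lower under CIH with no overlap, as were 16.5% of all genes (log2FC -1.09, SE 0.148, adjusted p = 3.44e-05). Under NX the groups overlapped (log2FC -0.11, SE 0.245, adjusted p = 0.822). Without M 5XFAD NX 4 and 5, left out after their values were seen, the NX value was -0.66 (adjusted p = 0.000643). The interaction of genotype and CIH was -0.99 (SE 0.302, unadjusted p = 0.00361, adjusted p = 0.117), and -0.45 (adjusted p = 0.461) without them. Apoe had an interaction of 1.10 (SE 0.321, unadjusted p = 0.00246, adjusted p = 0.117), and 0.80 (adjusted p = 0.381) without them. None of the 10 genes and 0% of all genes were called in this interaction by edgeR's quasi-likelihood test. In that test 24.4% of all genes had an unadjusted p under 0.05, as did 5 of the 10 (Apoe, Abca1, Lipa, Npc2 and Soat1). DESeq2 gave adjusted p-values of 0.0286 for Apoe and 0.0383 for Abca1.

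**Figure D3:**
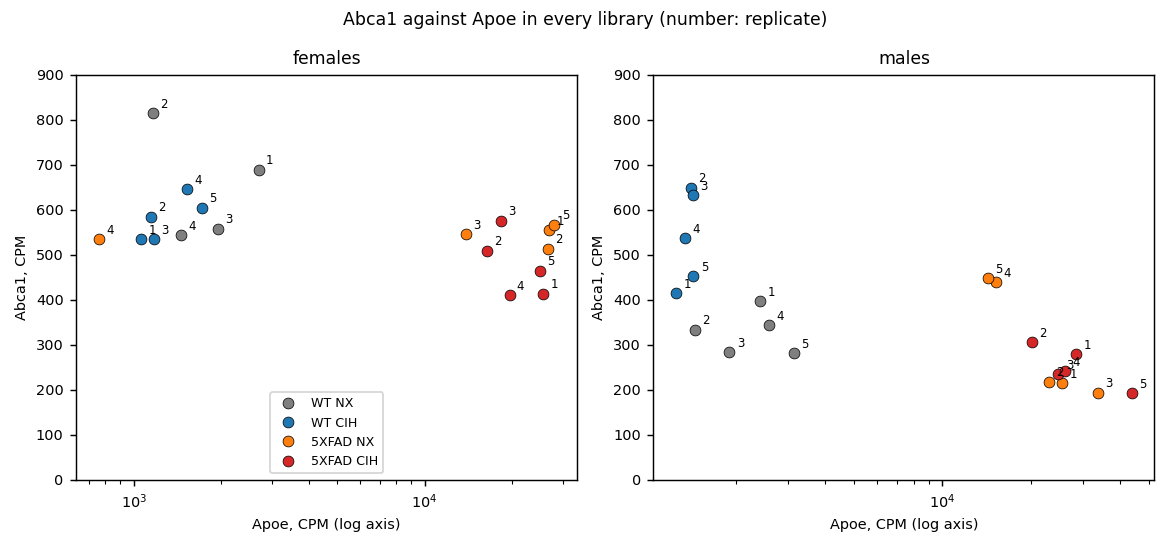
Abca1 (CPM, linear axis) against Apoe (CPM, log axis) in each library of each sex, coloured by group, with the replicate number beside each point. M 5XFAD NX 4 and 5 combine the 2 lowest Apoe levels of the 5XFAD males (15161 and 14314) with the 2 highest Abca1 levels (438.6 and 447.5), and F 5XFAD NX 4 lies below the WT females in Apoe (760.5) and within the range of its group in Abca1 (534.2).

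In females Abca1 was at 688.5, 814.4, 557.9 and 543.0 CPM in WT NX. It stood at 512.5 to 566.3 CPM in 5XFAD NX, where F 5XFAD NX 4 was not apart from its group. Under CIH it ranged from 533.6 to 645.2 CPM in WT and from 409.6 to 575.0 CPM in 5XFAD, which overlap. The log2FC was -0.26 under NX (SE 0.129, adjusted p = 0.182) and -0.28 under CIH (SE 0.0929, adjusted p = 0.0234). The latter passed the FDR alone, as did 25.7% of all genes in that direction, and did not without F WT CIH 4, F 5XFAD CIH 1 or F 5XFAD CIH 4 (adjusted p up to 0.0621). CIH gave -0.17 in WT females and -0.19 in 5XFAD females, with adjusted p-values of 0.96 and 0.998.

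Abcg1 (chromosome 17, 31057698 to 31115777), which exports sterol to mature lipoproteins, stayed between 159.7 and 236.4 CPM among females and between 146.1 and 220.7 CPM among males. Its group means ran from 179.9 ± 8.57 CPM in WT CIH to 208.8 ± 29.6 CPM in 5XFAD NX in females, and from 167.4 ± 22.2 CPM in WT CIH to 192.3 ± 21.6 CPM in WT NX in males (SD, n = 5 each). No comparison passed the FDR, with log2FC between -0.20 and 0.21. Its sign under CIH depended on scaling, being 0.14 in males and 0.12 in females with TMM, and -0.24 (adjusted p = 0.0443) and -0.08 with library size alone, which moved the median of all genes from -0.06 to -0.43 in males and from -0.02 to -0.21 in females. Without F 5XFAD NX 4 the NX female value was 0.28 (adjusted p = 0.0173).

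Soat1 (chromosome 1, 156424525 to 156474331), which esterifies cholesterol for storage, was 1.69- to 2.25-fold higher in 5XFAD, past the FDR in all 4 genotype comparisons. In NX males it stood at 107.6, 99.3, 99.2, 89.1 and 84.2 CPM in WT and 179.5, 211.0, 174.3, 212.3 and 255.2 CPM in 5XFAD. Here replicate 5 was the highest of the 10 male 5XFAD libraries and the groups stood well apart. The log2FC was 1.11 (SE 0.128, adjusted p = 6.31e-05). CIH males gave 0.76 (SE 0.108, adjusted p = 5.06e-05), past the FDR alone. In females it was 1.08 under NX (SE 0.270, adjusted p = 0.0347), where F 5XFAD NX 4 at 87.4 CPM lay among WT, and 1.17 under CIH (SE 0.0677, adjusted p = 1.83e-08). With library size alone all 3 of these calls fell short of the fold limit, at 0.93 in NX males, 0.88 in NX females and 0.98 in CIH females. The NX male value was 0.97 without M 5XFAD NX 4 and 5, under the fold limit, and 0.9997 without M WT NX 4 and 5. In WT males Soat1 ranged from 105.4 to 133.3 CPM under CIH and overlapped NX (log2FC 0.32, SE 0.0898, adjusted p = 0.0146). Without M WT NX 4 and 5 the log2FC was 0.23 (adjusted p = 0.112), and with all 4 groups in one fit the adjusted p was 0.0862.

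Plin2 (chromosome 4, 86648386 to 86670060) coats lipid droplets and is used as their marker. In males it ranged from 24.0 to 36.7 CPM in WT NX, 26.3 to 38.0 in WT CIH, 65.4 to 106.3 in 5XFAD NX and 82.2 to 124.8 in 5XFAD CIH. The genotypes did not overlap, at a log2FC of 1.48 under NX (SE 0.159, adjusted p = 3.32e-05) and 1.70 under CIH (SE 0.134, adjusted p = 1.67e-07). CIH females gave 1.76 (SE 0.0931, adjusted p = 8.59e-09). In NX females WT held 140.4 CPM in replicate 1 and 21.9 to 28.4 CPM in the rest, and 5XFAD held 116.1, 103.8, 69.2, 21.9 and 99.9 CPM. F WT NX 1 was the highest female library, and F 5XFAD NX 4 lay at the lowest WT level. The log2FC was 0.62 (SE 0.640, adjusted p = 0.517), and 2.00 (adjusted p = 3.4e-05) without both. In WT males CIH and NX had Plin2 means of 31.0 ± 4.57 and 31.0 ± 4.99 CPM (SD, n = 5 each, adjusted p = 0.997).

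Ch25h (chromosome 19, 34473786 to 34475135) makes 25-hydroxycholesterol, an oxysterol that activates LXR and restrains sterol synthesis. It was the one gene of the 10 whose NX females did not overlap, at 7.13, 1.62, 4.76 and 3.44 CPM in WT and 130.2, 98.4, 64.2, 7.80 and 147.7 CPM in 5XFAD. F 5XFAD NX 4 was just above F WT NX 1 and all other 5XFAD libraries were far higher. In that comparison 3.21% of all genes were higher with no overlap. The log2FC was 4.37 (SE 0.776, adjusted p = 0.0175). It was 5.02 in CIH females (SE 0.173), 5.57 in NX males (SE 0.415) and 5.69 in CIH males (SE 0.351), with adjusted p-values of 1.57e-10, 1.54e-06 and 1.71e-08. The 5XFAD CIH males held 86.0, 59.5, 90.9, 92.6 and 220.6 CPM, where replicate 5 stood far above the rest. Ch25h shares its place with Gm26902 on the other strand, which held 1454 counts over all male libraries against 16612, and whether counting used strand is not given in the sources used here.

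Between CIH and NX, edgeR's quasi-likelihood test called 0 of the 10 genes in WT females, 5XFAD females and 5XFAD males, as it did among all genes (0%). An unadjusted p under 0.05 was held by 3 of the 10 in WT females (Lpl, Fabp5 and Plin2, each high in F WT NX 1) and by 0 in both 5XFAD comparisons. The share of all genes with an unadjusted p under 0.05 was 3.87% in WT females, 3.22% in 5XFAD females and 3.3% in 5XFAD males. DESeq2 and edgeR's likelihood ratio test each called 1 gene in 5XFAD males, none of the 10. In the female interaction the share was 3.78%, with Lpl (log2FC 1.91) and Fabp5 (4.34) among these genes, and 0% were called. Without F WT NX 1 these were 1.11 and 0.07. In WT males 2.51% of all genes were DEGs (244 higher and 132 lower with TMM, 333 and 90 with library size alone) and none of the 10 was. By the FDR alone 5 of the 10 passed, against 28.6% of all genes, Abca1 and Soat1 higher, and Apoe, Npc2 and Lipa lower (15% of all genes were lower, and 9.12% lower with no overlap). Other markers moved in the same comparison. The 14 plaque-response markers summed to 4957 to 5994 CPM in WT NX males and 3240 to 3821 CPM in WT CIH males (10 of 14 lower by the FDR alone), and the 9 neutrophil and monocyte markers to 218 to 1114 and 122 to 297 CPM (6 of 9 downregulated). Of the 10 homeostatic markers 6, of the 8 defining microglial markers 3 and of the 8 border macrophage markers 3 were lower by the FDR alone, with no DEG among them. Of the astrocyte markers 2 of 9 tested were upregulated. Mitochondrial genes took 1.25% to 1.71% of counts in WT NX males and 0.965% to 1.197% in WT CIH males, with no overlap. None of the plaque-response or neutrophil and monocyte markers was at 0 in a male WT library. The part of these markers and of the mitochondrial share in the Apoe, Npc2 and Lipa values was not tested. Without M WT NX 4 and 5, 208 genes were DEGs in place of 376, none of the 10 among them, and Apoe, Npc2 and Abca1 passed the FDR while Lipa and Soat1 did not.

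Levels were compared between genes as deposited FPKM, which divides by gene length. The tables used different gene lengths (Fabp5 3567 bases in males and about 894 in females, Lpl 10478 and about 4049), so the order is given within a sex. Apoe was highest and Npc2 second in all 8 groups. In NX males Apoe stood at 1066 ± 297 FPKM in WT and 10263 ± 3517 FPKM in 5XFAD (SD, n = 5 each), and Npc2 at 106 to 131 and 201 to 378 FPKM. The order below them was Abcg1, Lipa, Abca1, Soat1, Plin2, Lpl, Ch25h and Fabp5 in WT NX males, where Abcg1 and Lipa, Soat1 and Plin2, Lpl and Ch25h, and Ch25h and Fabp5 overlapped in range. In 5XFAD NX males it was Lpl, Ch25h, Lipa, Fabp5, Abcg1, Abca1, Plin2 and Soat1. Lpl thus went from rank 8 to rank 3 and Ch25h from 9 to 4, and Soat1 went from 6 to 10 while its own mean went from 9.73 to 20.9 FPKM. In 5XFAD NX males Lpl and Ch25h, Ch25h and Lipa, Fabp5 and Abcg1, and each later pair of neighbours overlapped in range. In females Ch25h was last of WT NX (3.27 ± 1.78 FPKM, n = 4) and at rank 6 of 5XFAD NX (58.7 ± 34.9 FPKM, n = 5). Its last place rests on F WT NX 1, where Fabp5 stood at 108.8 FPKM. In the rest of that group Fabp5 held 1.24 to 1.64 FPKM and Ch25h 1.25 to 3.70 FPKM. Abcg1 took the last place in both female 5XFAD groups.

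**Figure D4:**
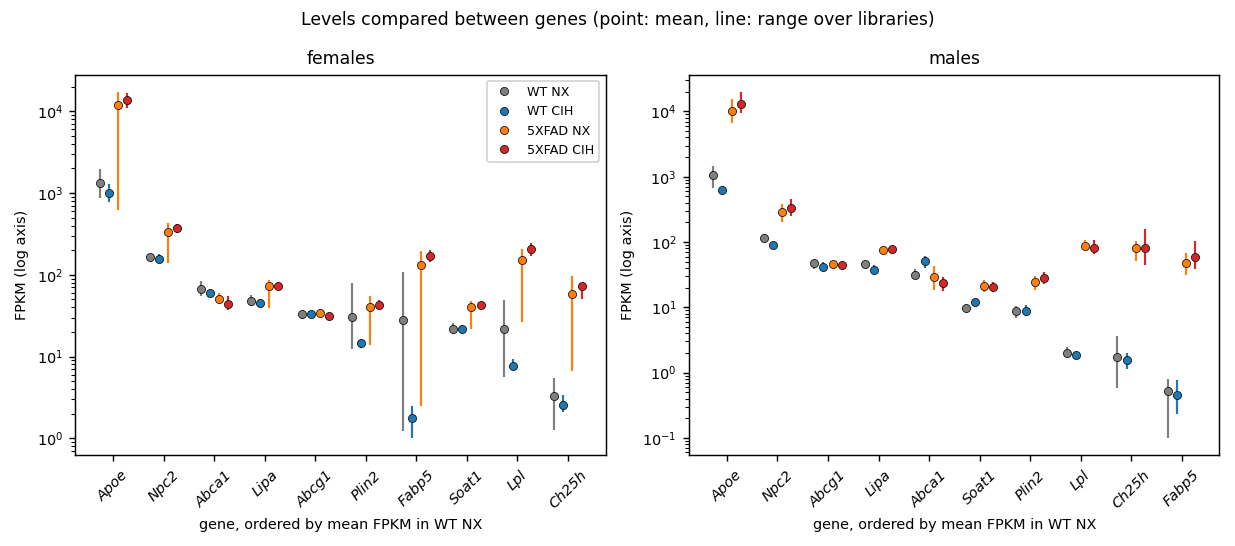
Mean FPKM (log axis) of the 10 genes in each group of each sex; points are means and lines span the lowest to the highest library. Apoe and Npc2 hold the top places in every group, and in males the means of Lpl, Ch25h and Fabp5 lie below both exporters and Soat1 in WT and above them in 5XFAD.

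Of 13431 genes tested in both sexes, those with the pattern most like Apoe were found by the root mean square difference of log2 CPM, each centred on the WT NX mean of its sex, over all 39 libraries. Among the 8 closest were Fam20c (0.417), Myo1e (0.429), Cited4 (0.435), Gas7 (0.455), Cd200r4 (0.463), Tmem178 (0.512) and Pdcd1 (0.523), in log2 units. Among the other 9 genes described here Ch25h was closest (1.05, rank 118) and Lpl next (1.13, rank 140), whereas Abcg1 ranked 4922 and Abca1 11304. The libraries share genotype and the measure compares size as well as shape.

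The wider pathway was read from 9 lists of 102 further genes (apolipoproteins, receptors, lipase regulators, other sterol transporters, LXR and partners, lysosomal sterol export, lipid droplets, oxysterol enzymes, and fatty acid carriers). Of 79 tested in NX females 9 were upregulated (4.4% of all genes were) and 0 downregulated (1.59%), and of 80 in CIH females 14 (8.83%) and 1 (4.12%). In males 9 of 81 rose (5.94%) and 1 fell (2.31%) under NX, and 13 of 79 rose (11.8%) and 0 fell (6.88%) under CIH. The median log2FC of the listed genes was -0.0034 in NX females, 0.13 in CIH females, 0.14 in NX males and 0.12 in CIH males, against -0.02, -0.02, 0.02 and -0.06 over all genes tested. Most listed genes were thus not called. The counts include genes that passed the filter on low counts only through 5XFAD, among them Apoc4, Apoc1, Fabp3 and Fabp7 in CIH males. Such genes could enter the counts only as higher in 5XFAD, and counts without them are not given. Of the 12 receptors and uptake genes tested 2 or 3 were upregulated in each genotype comparison, of the 17 lipid droplet genes 1 to 4, and of the lipase regulators and the further oxysterol enzymes 0.

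Apoc4, the neighbour of Apoe and a particle protein, was at 3 counts or fewer in every WT library of 3 comparisons, and its mean in 5XFAD was at least 43.1-fold higher than that floor in CIH females and 22.5-fold in NX males. In NX females the 5XFAD libraries spanned 3 to 255 counts, so that the lowest was itself at the floor. It passed the filter only through 5XFAD, as did Apoc1 where it was called, under CIH in both sexes. Lrpap1, a chaperone of lipoprotein receptors, had a log2FC of 1.40 and 1.74 in females and 1.47 and 2.06 in males (NX, then CIH). Among carriers Fabp3 was upregulated in all 4 comparisons. In females and in CIH males it passed the filter on low counts only through 5XFAD. Female WT libraries held 0.232 to 0.740 CPM, against 33.5 to 48.5 CPM in 5XFAD CIH and 0.4657 (8 counts) to 50.8 CPM in 5XFAD NX. In males WT held 0.230 to 1.91 CPM and 5XFAD 24.6 to 98.997 CPM. Fabp7, called in males alone, likewise passed only through 5XFAD, at 0 to 0.473 CPM in WT and 0.0772 (1 count) to 2.24 CPM in 5XFAD.

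Nceh1, which hydrolyses cholesteryl ester outside the lysosome, had a log2FC of 2.64 and 3.25 in females and 3.07 and 3.04 in males, rising from 19.4 ± 2.77 to 162.4 ± 21.2 CPM in NX males (SD, n = 5 each). Stard4, a cytosolic sterol carrier, had 1.48, 1.92, 1.69 and 1.64, and Rxrg, a partner of LXR, had 2.07, 2.31, 2.47 and 2.72. Dgat2, which makes triglyceride, had 1.71 and 1.98 in females, and the transporter Abca5 1.32 and 1.98. In males Dgat2 was called under CIH (2.01) and Abca5 under NX (1.81). The LXR genes themselves, Nr1h3 and Nr1h2, were not DEGs in any comparison. The 2 downregulated genes, chosen after their values were seen, were Pnpla3 in CIH females (-1.74) and Cd36, a fatty acid receptor, in NX males (-1.26). Under CIH in WT males G0s2, an inhibitor of droplet lipolysis, was the single listed DEG, at 4.62 ± 2.45 CPM in NX and 1.09 ± 0.222 CPM in CIH (log2FC -2.07, SE 0.364, adjusted p = 0.000938), a call lost with all 4 groups in one fit, where no gene was a DEG. This was the comparison where the neutrophil and monocyte markers were also lower.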

How the data were processed

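CD11b-positive cells were isolated by the authors after papain and DNase dissociation and Percoll removal of myelin, and their mRNA was read paired-end. Per the labels' processing notes, reads were aligned with HISAT2 to GRCm38 (mm10), with versions not given in the sources used here. The authors deposited whole-number counts and FPKM for every gene and library, in 1 table per sex. Deposited FPKM values were scaled by the authors by the sum of counts in females and by size factors in males, over different gene lengths. The labels of the groups were taken as given.

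Counts were fitted within each sex and pair of groups with edgeR 4.0.16 (quasi-likelihood, TMM, R 4.3.3), keeping genes above 1 CPM in at least 3 of the libraries compared. Genes with an FDR below 0.05 and an absolute log2FC above 1 were DEGs, and the interaction used all 4 groups of a sex. The SE was derived from the F statistic. Alternatives were library-size scaling, count filters, DESeq2 1.42.0, the likelihood ratio test, limma 3.58.1 on log2(FPKM + 1) and log2(FPKM + 0.1), all groups in 1 fit, a replicate block and leaving out each library. Scripts were tested on simulated data.

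The 10 genes and all lists were chosen with earlier results of these data known. Pathway genes were named where they were DEGs in both genotype comparisons of a sex or in a CIH comparison, with at most the 3 largest log2FC per list and comparison. A few genes that met these rules are not reported here.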

Additional observations from a re-analysis of the deposited data

Results flagged for a closer look

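Within the 80 groups of 4 or 5 libraries (10 genes in 8 groups), 7 single values lay far from the rest of their group by Dixon's ratio, where chance gives about 5% of groups. F WT NX 1 held 92.6 CPM of Fabp5 against at most 1.39 in the other 3, and 140.4 CPM of Plin2 against at most 28.4. M 5XFAD CIH 5 was high in 3 genes, with 1173 CPM of Lpl (next 814), 378.9 CPM of Fabp5 (next 193.5) and 220.6 CPM of Ch25h (next 92.6). F 5XFAD CIH 5 held 222.0 CPM of Abcg1 (next 190.7), and F 5XFAD CIH 2 held 70.9 CPM of Ch25h, below the next at 111.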

How the results depend on the processing

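The genotype calls in NX females were the least stable. Of the 10 genes 5 were upregulated there, 0 with a replicate block, 2 with limma on FPKM under either pseudocount, 8 without F WT NX 1 and F 5XFAD NX 4 (an exclusion chosen after their values were seen), and 0 to 6 when 1 library was left out. Over all genes the same comparison called 869, and 7 with the block. With 1 library left out it called 27 (without F WT NX 3) to 1880 (without F 5XFAD NX 4). Upregulated were 638 of the 14513 genes tested in the main fit, and 228 and 316 of 13095 with limma (pseudocounts of 1 and 0.1). Without F WT NX 1 and F 5XFAD NX 4, 1184 of 13962 were upregulated. The deviations from the group means of libraries sharing a replicate number had r from -0.63 to 0.34. What a replicate number stands for is not given in the sources used here, and whether it marks a batch was not tested. In WT females CIH gave 2 downregulated genes with no filter on low counts, Lpl and Fabp5, both highest in F WT NX 1. In that refit 21 of all 36713 genes tested were downregulated. Without the fold limit Abca1 made 1 lower in CIH females, and 2 were higher and 3 lower under CIH in WT males. The male interaction gave 1 higher with DESeq2, 1 higher and 1 lower with no filter, and 0 to 1 in each direction with 1 library left out (1 and 1 without M 5XFAD NX 1). Abcg1 turned to -0.24 in CIH males with library size alone, where the median of all genes moved to -0.43. Over all genes, CIH in WT males called 376 and 0 with all 4 groups in one fit, 621 without M WT NX 1, and 208 without M WT NX 4 and 5, chosen after their values were seen. The male interaction called 0 by edgeR's quasi-likelihood test, 175 by its likelihood ratio test and 381 by DESeq2. The quasi-likelihood test called 790 with no filter and 478 without M 5XFAD NX 1. The cause of these shifts was not tested. No value past the FDR changed sign, in 280 refits of the 10 genes in females and 460 in males, and the others did in 50 of 800 and 60 of 685. Arms of 4 or 5 libraries, with totals of 13457293 to 25906121, limit what could be detected.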

Other observations

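Other cell types and states were read beside the genotype comparisons. Of all genes tested 4.4% and 8.83% were upregulated in females and 5.94% and 11.8% in males (NX, then CIH). The shares downregulated were 1.59% and 4.12% in females and 2.31% and 6.88% in males. Of 10 homeostatic microglial markers 1 was downregulated in NX females and 2 in each of the other 3 comparisons, and 0 were upregulated. By the FDR alone 7 and 9 were lower in females and 8 and 7 in males (NX, then CIH), and 2 were higher in CIH males. The shares of all genes lower by the FDR alone were 6.61% and 25.7% in females and 7.37% and 23.7% in males, and 25.3% were higher in CIH males. Oligodendrocyte markers were upregulated in 3 of 8 tested in NX males, 2 of 8 in CIH males, 1 of 7 in CIH females and 0 of 7 in NX females. Of the 8 endothelial and mural markers 1 or 2 were upregulated and 1 or 2 downregulated in each. Of 12 dissociation genes 2 were upregulated in NX females and 1 in CIH males, and 2 were downregulated in NX males. Neuronal markers had 1 downregulated in CIH females and 1 in NX males.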
